A study of Mus musculus with 2 samples.

Results

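Glycam1 (ENSMUSG00000022491) was followed as 1 gene of the 32285 counted in endothelial cells sorted from mouse lymph nodes. It was chosen with its high levels in high endothelial and floor lymphatic cells already known from these libraries. Its levels across cell types are therefore given as a description, without a test, and only node, genotype and library were tested. RNA was counted as UMIs (short random tags, so that copies of 1 captured molecule count once) in 2 droplet libraries. In each library 4 pools were mixed and told apart by antibody-borne hashtags, with WT and Xbp1-KO each represented by a pool of peripheral and a pool of mesenteric nodes. The labels give tamoxifen as the treatment of all pools, WT included. They name no Cre driver, strain, age or sex, nor the number of animals behind a pool, so p-values measure the spread between 2 pools per group that may share animals. Endothelial cells were enriched by depleting CD45-bearing cells with beads and then sorted.

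Glycam1 encodes a small secreted glycoprotein whose backbone carries dense O-linked sugar chains, a sialomucin. In high endothelial venules, the vessels through which lymphocytes leave the blood and enter a node, fucosyltransferase Fut7, sulfotransferase Chst4 and extension enzyme B3gnt3 build the sulfated sialyl Lewis X sugars on such backbones that L-selectin on lymphocytes binds. The lymphatic endothelium of the subcapsular sinus has a ceiling layer facing the capsule and a floor layer facing the node. XBP1 is activated when unfolded protein builds up in the endoplasmic reticulum, and it expands the secretory pathway of cells with a heavy protein load.

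On GRCm38 the gene lies on the minus strand of chromosome 15, from 103562759 to 103565081, in 4 exons. Its transcript has 628 bases, of which 453 are coding. Exon 4 (103562762 to 103563014) holds the end of the coding sequence and the 3′ UTR, where reads of a 3′ assay fall. No annotated gene overlaps it. The nearest neighbours are the pseudogene Gm9108 at 21863 bases and the protein-coding genes Ppp1r1a at 24756 and Pde1b at 32707 bases. Reads of Glycam1 are thus not shared with an overlapping gene. Because the study concerns loss of XBP1, the 250 bases before the annotated start (chr15:103565082-103565331, minus strand, GRCm38.p6, from RefSeq) are printed, 5′ to 3′, with capitals marking every match to the CCAAT box, on either strand, and to AAATAAA.

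Glycam1 upstream: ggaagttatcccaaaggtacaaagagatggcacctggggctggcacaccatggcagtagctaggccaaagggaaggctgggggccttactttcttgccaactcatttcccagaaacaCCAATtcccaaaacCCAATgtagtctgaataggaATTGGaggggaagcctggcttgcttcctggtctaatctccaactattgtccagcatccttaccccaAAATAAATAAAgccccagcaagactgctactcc

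The search covered 5 short motifs, each on both strands. CCAAT matched 3 times, a motif held at least once by 34.5% of 27025 RefSeq promoter windows of the same length. AAATAAA matched 2 times, with the matches overlapping, and is held by 8.94% of windows. ACGTG, the core of elements bound by XBP1, had no match here and at least 1 in 16.6% of windows. CCACG, part of the ER stress element, had none here and at least 1 in 28.2%. TATAAA, held by 13.0% of windows, also had none. A match is a description of letters, and the absence of one says nothing of a factor's binding.

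Library 1 held 7709 barcodes and 33024170 UMIs, and library 2 held 2903 barcodes and 14744778 UMIs. Glycam1 took 416148 UMIs in library 1, 1.26% of the library, and 152163 UMIs in library 2, 1.03%. It was detected in 63.9% of barcodes of library 1 and 33.2% of library 2. The libraries share 3 barcode sequences. After filtering, 9275 cells with a single hashtag were kept, with 409 to 2293 cells per pool. The WT pools of library 1 and the Xbp1-KO pools of library 2 carry the Y-linked transcript Ddx3y, and the other 4 pools carry Xist, which is transcribed from the inactive X chromosome. Genotype and these transcripts are therefore reversed between the libraries, and this is given again beside the results it touches.

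Cells were sorted into gates by markers that leave Glycam1 out. A blood endothelial cell entered the high endothelial gate with UMIs of at least 2 of Fut7, Ubd, Chst4 and B3gnt3, and a lymphatic cell the floor gate with at least 2 of Coch, Bmp2, C1ql3 and Itga2b. Capillary cells, with Rgcc, Gpihbp1, Car4 and Kdr as markers and no UMI of a high endothelial marker, gave the background level. Since the gates were set by these markers, their levels describe the gates and do not check them. Fut7 stood at 2.32 and 4.69 UMIs per high endothelial cell in libraries 1 and 2, and at 0.00369 and 0.00673 per floor cell.

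Glycam1 had its highest level in the high endothelial gate. The 521 cells held a mean of 718 and a median of 85 Glycam1 UMIs, with a highest value of 6300. In 1 cell it made up 47.9% of all UMIs. As a mean over the 8 pools, the level was 547 ± 458 UMIs per 10000 (SD, n = 8 pools). The SD is close to the mean, since pools differed widely, from 38.7 to 1215. The floor gate came next among the named endothelial types, with 54.2 ± 18.3 per 10000 and a narrower range over pools of 31.7 to 80.5. Its 1381 cells held a mean of 30.1 and a median of 7 UMIs, and at most 951, which was 12.1% of that cell's UMIs.

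The capillary background was 2.07 ± 1.42 UMIs per 10000 over the same pools, in 3107 cells. Set against it, the high endothelial level was 264 times and the floor level 26.2 times as high. The capillary level was 3.35 in library 1 and 0.792 in library 2, so the folds depend on the library. Within single pools, floor folds ran from 7.80 to 27.8 in library 1 and from 33.3 to 92.0 in library 2, without overlap. High endothelial folds ran from 13.8 to 335 and from 114 to 1291. Both gates lay above the capillary cells of their own pool in all 8 pools. The arterial gate stood at 1.76 ± 1.51, the sinus lymphatic gate at 1.53 ± 0.954 and the ceiling lymphatic gate at 1.14 ± 0.794 per 10000. Their ranges over pools overlap that of capillary cells. Whether ceiling and sinus cells lie above or below capillary cells of the same pool turns with the scale. Per 10000 UMIs, ceiling cells were lower in 8 of 8 pools (0.330 to 0.712 times), sinus cells in 7 of 8 (0.518 to 1.51 times) and arterial cells in 5 of 8 (0.238 to 2.71 times). In UMIs per cell, ceiling cells were higher in 7 of 8 pools and sinus cells in 8 of 8, at median depths over both libraries of 5313 and 5790 UMIs against 2603 in capillary cells. Arterial cells were lower in the same pools on both scales. The venous gate (34.6 ± 52.3, with only 1 to 21 cells per pool), lymphatic cells outside the named subsets (21.3 ± 19.9) and blood cells outside them (14.3 ± 25.9) lay between, with spreads as large as their means. Cells with no clear lineage had 87.1 ± 39.2 per 10000. In libraries 1 and 2 their mural and fibroblast markers summed to 856 and 2263 CPM (UMIs scaled to a common total), their lymphatic lineage markers to 628 and 497 CPM and their lymphocyte markers to 67.4 and 336 CPM. The part of mixed droplets in that level was not tested.

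The share of cells with at least 1 Glycam1 UMI separates the gates less well than the amount. It was 83.5% in high endothelial cells (95% exact binomial interval 80.0% to 86.6%, covering counting error only) and 86.8% in floor cells (84.9% to 88.6%). In capillary cells it was still 41.2% (39.4% to 42.9%), at a median depth of 2603 UMIs against 7381 and 5876. With each cell thinned to 2000 UMIs, the shares were 79.1% in high endothelial, 72.1% in floor, 29.2% in capillary, 29.1% in sinus lymphatic, 23.5% in ceiling lymphatic and 23.2% in arterial cells. Thinning left out 8, 9, 861, 0, 14 and 14 shallower cells of these gates. The last 3 shares are at or below the capillary one and are read as background. Of the capillary cells, 52.0% in library 1 and 18.6% in library 2 had a UMI, with means of 0.773 and 0.231 UMIs per cell. The background thus differed between the libraries, and thresholds were set within each. The 99th percentile of capillary cells was 4 UMIs in library 1 and 2 UMIs in library 2. Above it lay 69.1% of high endothelial cells and 56.0% of floor cells, but 2.41% of arterial (2 of 83 cells), 2.24% of sinus, 0.957% of ceiling and 0.354% of capillary cells.

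**Figure D1:**
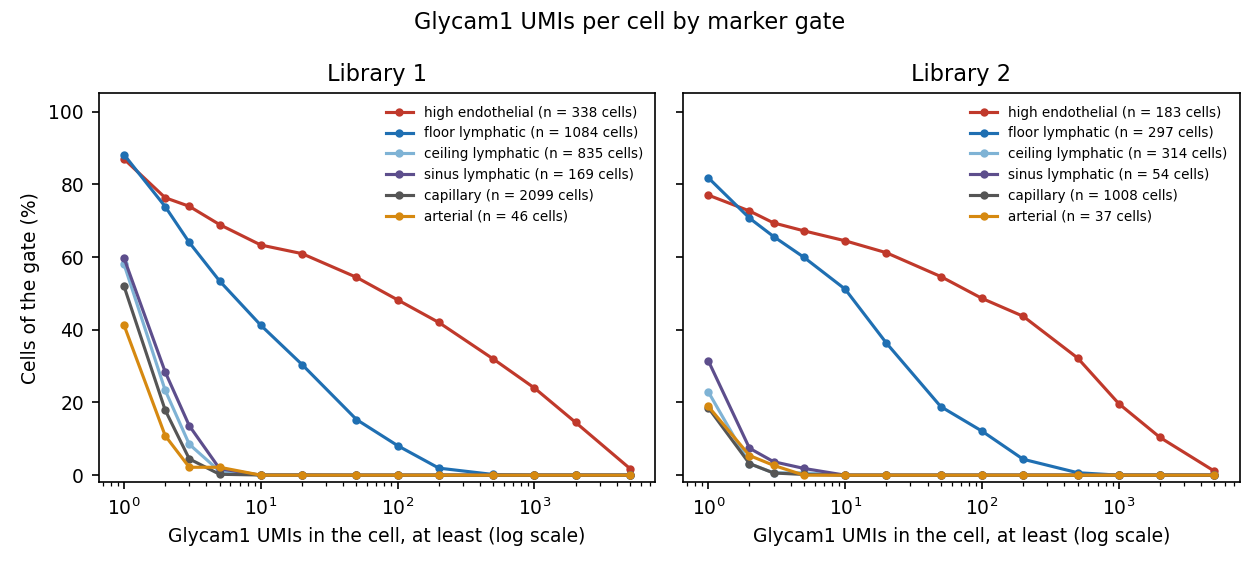
Percent of cells of each gate (y axis) with at least the number of Glycam1 UMIs on the x axis (log scale), in library 1 and library 2; every line is a marker gate, with its number of cells in the legend. High endothelial cells reach 6300 UMIs, floor lymphatic cells reach 951, and ceiling, sinus, capillary and arterial cells fall to nearly 0% by 10 UMIs.

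The shape of the distributions differed too. Among high endothelial cells, 86 had no Glycam1 UMI, 103 had 1 to 9, 80 had 10 to 99, 135 had 100 or more but under 1000, and 117 had 1000 or more. The 10% of cells with most Glycam1 held 53.6% of the gate's Glycam1 UMIs. Among floor cells, 182 had none, 600 had 1 to 9, 475 had 10 to 99 and 124 had 100 or more, and no cell reached 1000. The top 10% of floor cells held 59.7% of the gate's Glycam1. Glycam1 was thus spread over a wide range inside both gates, with some cells of each at the capillary level.

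Floor cells held Glycam1 with few transcripts of Ccl21a, Chst4 or Fut7. Glycam1 stood at 4722 and 5534 CPM of the floor gate's UMIs in libraries 1 and 2, against 103132 and 66880.2 CPM in the high endothelial gate. Ccl21a, a chemokine of high endothelial and stromal cells, stood at 32.9 and 15.5 CPM in floor cells, below its 78.3 and 44.9 CPM in capillary cells. Chst4 was counted with 1 and 2 UMIs in all floor cells of the libraries. The ratio of Glycam1 to Ccl21a UMIs was 6.49 and 3.76 in high endothelial cells and 3.70 and 1.45 in capillary cells, but 144 and 357 in floor cells. In ceiling cells it was 2.53 and 2.57. The capillary and ceiling ratios thus lie below the high endothelial one in the same library, and the floor ratio lies far above it. Madcam1, the addressin that binds integrin on gut-homing lymphocytes, stood at 405 and 438 CPM in floor cells, against 16.6 and 6.69 in capillary cells. In high endothelial cells it was a transcript of mesenteric nodes, with 2282 to 3084 CPM in the 4 mesenteric and 0 to 74.5 CPM in the 4 peripheral pools. Ubd, a ubiquitin-like protein and a high endothelial marker, was at 64.0 and 65.7 CPM in floor cells and 2004 and 1868 CPM in high endothelial cells.

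**Figure D2:**
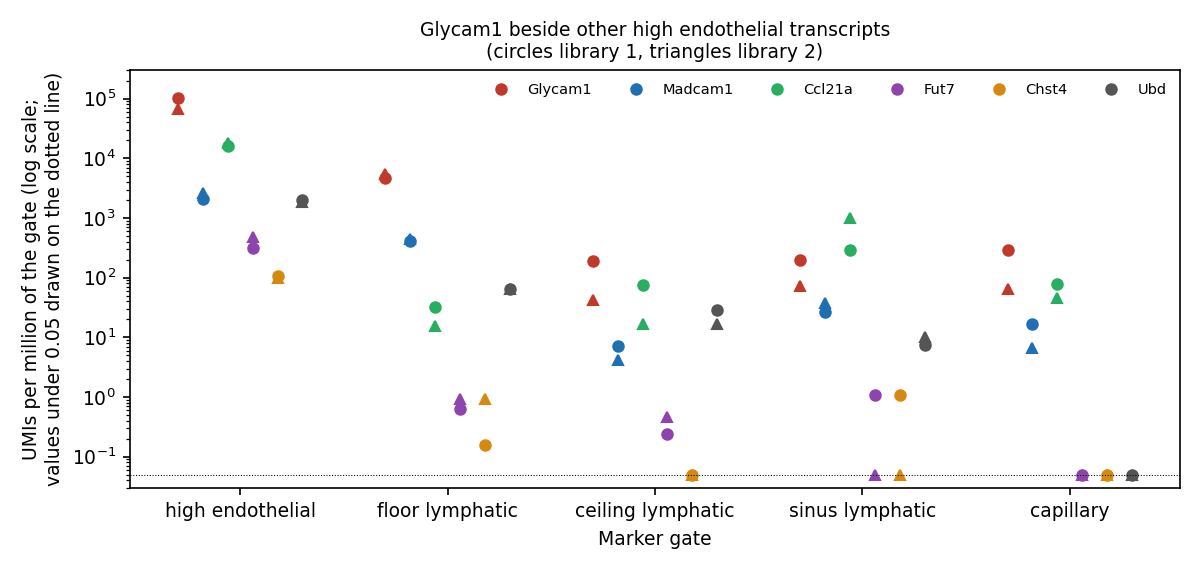
CPM (y axis, log scale) of Glycam1 and 5 other high endothelial transcripts in 5 marker gates, with circles for library 1 and triangles for library 2; values under 0.05 are drawn on the dotted line. Summed over nodes, Glycam1 and Madcam1 are above the capillary level in both the high endothelial and the floor gate, whereas Fut7 and Chst4 are high in the first alone, in part because they define that gate and, in capillary cells, because those cells were required to lack them.

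Markers of other cell types were counted in both gates. In the high endothelial gate the mural and fibroblast list (2 of 6 markers detected in library 1, 3 of 6 in library 2) summed to 7.67 and 4.51 CPM, with Pdgfrb, Acta2 and Col1a1 at 0. All 4 epithelial markers were at 0 in both gates. In the floor gate the mural list (5 of 6 and 3 of 6 markers detected) summed to 234 and 324 CPM, above the 70.3 and 43.0 CPM of capillary and the 5.53 and 2.82 CPM of ceiling cells. Of this, Rgs5 gave 218 CPM and Ccl19 gave 37.9 CPM over both libraries, while Pdgfrb was at 0. The lymphocyte list stood at 35.5 and 20.9 CPM in high endothelial cells (5 of 6 markers detected in each library), against 4.46 and 6.14 in capillary cells. Of the high endothelial gate, 11 cells lay in a lymphocyte-like cluster, with a mean of 933 Glycam1 UMIs. The part of these cells and markers in the Glycam1 levels was not tested.

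Cells with more gate markers held more Glycam1. Blood cells with more of these markers were also deeper, with median depths of 2559 UMIs at 0 markers, 5776 at 2 and 11755 at 4. In lymphatic cells the depths were 4938, 5862.5 and 5907. The part of depth was not tested. Blood cells with 0, 1, 2, 3 and 4 of the high endothelial markers held means of 0.602, 12.2, 314, 1118 and 1392 Glycam1 UMIs. Lymphatic cells with 0 to 4 floor markers held 0.800, 7.16, 17.3, 34.4 and 56.4. Just outside the high endothelial gate, with 1 marker, were 1073 cells with a median of 0 Glycam1 UMIs, and just inside, with 2 markers, were 283 cells with a median of 5. At the edge of the floor gate the medians were 1 in 656 cells outside and 2 in 642 cells inside. Both gates therefore include cells at background along with cells far above it.

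**Figure D3:**
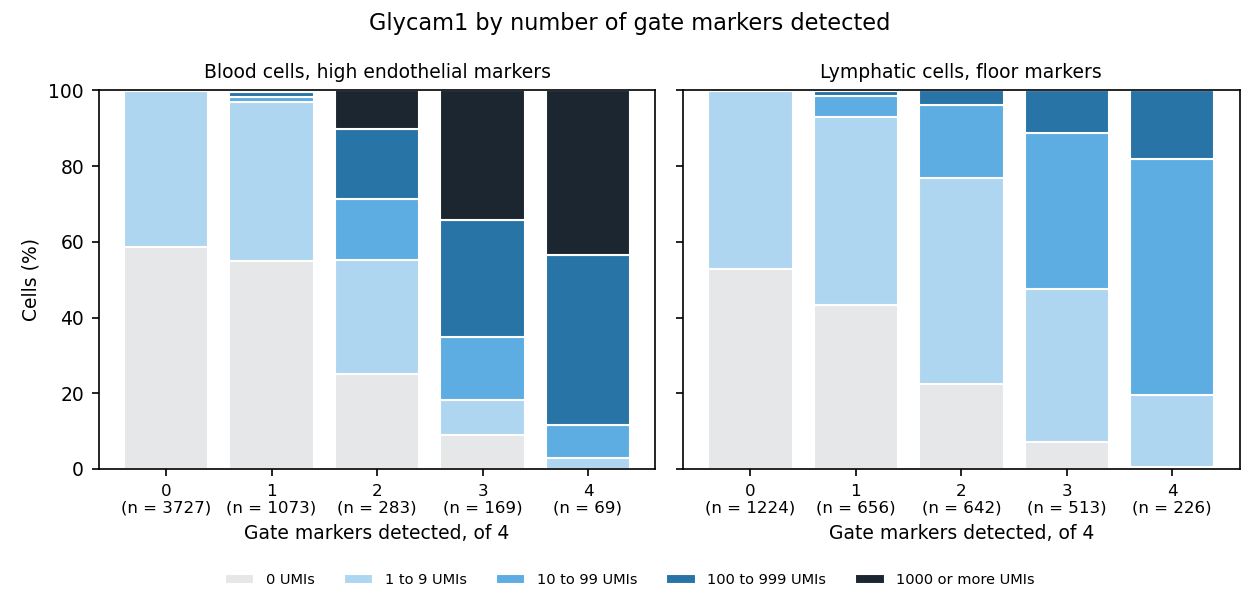
Stacked bars give the percent of cells (y axis) in 5 classes of Glycam1 UMIs, by the number of gate markers detected (x axis, number of cells below), for blood cells with high endothelial markers and lymphatic cells with floor markers. With 4 high endothelial markers, 43.5% of 69 cells held 1000 or more UMIs, and with 4 floor markers 62.4% of 226 cells held 10 to 99.

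Single markers picked cells of unlike Glycam1 content. High endothelial cells with Chst4 (165 cells) held a mean of 1542 Glycam1 UMIs and a median of 965, whereas the 356 cells of the gate without Chst4 held a mean of 336 and a median of 8.5. Their median depths were 10519 and 6329.5 UMIs, and the part of depth was not tested. Cells admitted by Ubd and B3gnt3 alone (98 cells) had a median of 1 Glycam1 UMI, which is within the capillary range. Cells admitted by Fut7 and Ubd alone (165 cells) had a median of 58. Among all lymphatic cells with a UMI of the marker, those with Coch (424 cells) held a mean of 64.2 Glycam1 UMIs, those with C1ql3 (794 cells) 35.5, those with Bmp2 (1580 cells) 27.9 and those with Itga2b (1585 cells) 19.8.

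Clusters computed without Glycam1 and without the gate markers gave the same picture as a description. The clusters were then named by the same marker lists, so their match with the gates is partly built in. Of the 521 high endothelial gate cells, 356 lay in the high endothelial-like cluster, with a mean of 998 Glycam1 UMIs. The 101 gate cells in unnamed clusters had a median of 1. Of the 1381 floor gate cells, 975 lay in the floor-like cluster, which was led by Ccl20, Coch, Mmp9 and Bmp2, with a mean of 41.6 Glycam1 UMIs, while 380 lay in sinus-like clusters with a mean of 2.42.

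Genes whose levels resemble those of Glycam1 were ranked without a test. Gate and lineage markers were left out of the ranking over sums, but not of those over single cells. Over 18 sums (9 gates in each of 2 libraries, which share depth and background within a library) the 8 genes most correlated with Glycam1 among 10061, on log2(CPM + 10), were Madcam1 (r = 0.957), Psmb7 (0.918), Rdh10 (0.893), Nxph1 (0.891), Dsg2 (0.864), Stra6 (0.859), Dennd2d (0.857) and Tcerg1l (0.853). Psmb7 encodes a proteasome subunit, Rdh10 a retinol dehydrogenase, Stra6 a retinol transporter and Dsg2 a desmosomal cadherin. Dsg2 was higher in floor cells (548 and 620.3 CPM) than in high endothelial cells (352 and 307 CPM). Among the 521 single high endothelial cells, Spearman's rho with Glycam1 per 10000 was highest for Ubd (0.457), Cd63 (0.429), Chst4 (0.426), Pglyrp1 (0.394), Ccl21a (0.389), Gcnt1 (0.385), Clu (0.381) and Ptgds (0.376). It was lowest for Sparc (-0.469), Flt1 (-0.465), Sparcl1 (-0.422) and Plvap (-0.419), of which Flt1, a VEGF receptor, and Plvap, of fenestrae, are high in capillaries. The cell's total UMIs correlated as strongly, at 0.436. Among the 1381 floor cells, the highest were Madcam1 (0.676), Dsg2 (0.569), Clu (0.569), Prnp (0.567), Il4i1 (0.543), Mmp9 (0.538), Coch (0.510) and Srgn (0.498), and the lowest were Selenop (-0.671), Stab2 (-0.555), Lyve1 (-0.538) and Aplp2 (-0.534). Stab2 and Lyve1 are hyaluronan receptors of lymphatic endothelium. Here Lyve1 was among the leading genes of the sinus-like clusters and Stab2 among those of a ceiling-like cluster. Depth correlated at -0.105 there. Clu, which encodes the secreted chaperone clusterin, is in both lists of single cells.

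The main comparison of the design, Xbp1-KO against WT, gave for Glycam1 in high endothelial cells opposite answers in the 2 libraries. In library 1 the mean level was 38.7 UMIs per 10000 in WT peripheral and 1044 in Xbp1-KO peripheral nodes. In mesenteric nodes it was 317 for WT and 1215 for Xbp1-KO. Library 2 had 389 for WT and 69.4 for Xbp1-KO in the peripheral nodes, and 960.5 for WT and 343 for Xbp1-KO in the mesenteric ones. By these means Xbp1-KO was higher in both pairs of library 1 and lower in both pairs of library 2. The peripheral pair of library 2 rests on few cells. Of its 18 WT cells, 2 held 1000 UMIs or more and 11 held none; of its 20 Xbp1-KO cells, none reached 1000 and 11 held none. The median was 0 in both, and 38.9% of the WT and 45% of the Xbp1-KO cells had a UMI. The 4 pools with Xist (Xbp1-KO in library 1, WT in library 2) stood at 389 to 1215 and the 4 pools without it at 38.7 to 343, so these values do not overlap.

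For the tests, UMIs were summed per pool and gate and fitted with edgeR's quasi-likelihood method on TMM-scaled counts, with Benjamini-Hochberg adjustment over all genes tested. Averaged over tissues and libraries, Xbp1-KO exceeded WT by 0.90 ± 0.75 in log2 (SE), which did not pass (edgeR, adjusted p 1.0). This comparison called 0 of 6434 genes (0%), and 222 had an unadjusted p under 0.05. The difference was 1.46 ± 1.07 for peripheral and 0.33 ± 1.05 for mesenteric nodes, and these differed from each other by 1.12 ± 1.48 (edgeR, adjusted p 1.0 for each; 0% of genes called in each). Each mean comes from 2 pairs of pools of opposite sign. Without library 1 the mean over tissues was -2.51, and without library 2 it was 3.71. The peripheral difference was then -3.33 and 5.43, and the mesenteric one -1.68 and 1.99. With no filter on low counts, where the SE was smaller, the mean passed at 0.95 ± 0.21 (edgeR, adjusted p 0.019). The peripheral difference passed there too, at 1.55 ± 0.30 (edgeR, adjusted p 0.0025), and the mesenteric one did not. With at least 3 markers the mean was 3.51, but both peripheral sums of library 2 then fall under 5 cells. Its peripheral component is then library 1 alone, with 1 pool of each genotype, so the value is given without a test.

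A fit with groups of library and genotype and a term for tissue, chosen after these values had been seen, gave the effect within each library. In this fit, in every gate, the 2 sums of a group are the peripheral and mesenteric pools of 1 library. Its p-values therefore measure the spread between nodes of the same library, not between replicate pools. In library 1 Glycam1 was higher in Xbp1-KO by 3.72 ± 0.42 in log2 (edgeR, adjusted p 8.8e-07; higher in 2 of 2 pairs), where 0.653% of 6434 genes were called. In library 2 it was lower, by a log2 difference of -2.48 ± 0.39 (edgeR, adjusted p 0.00041; lower in 2 of 2 pairs of sums, the peripheral one resting on the few WT cells given above), where 0.575% were called. The difference between the libraries was -6.20 ± 0.59 (edgeR, adjusted p 1.5e-08). It was among 55 genes called, 0.855% of those tested. With DESeq2 the difference also passed (-6.23, adjusted p 0.0050), whereas the effect in library 2 alone did not (-2.49, adjusted p 1.0). Xist and Ddx3y differ between the same pools: Xist was found in 91.3% to 94.4% of the cells of the 4 pools with high Glycam1 and in at most 3.23% of the others, and Ddx3y in 21.6% to 49.4% of the latter and in 0% of the former. Their part in the result was not tested, and with 1 pool per cell of the design, the animals of a pool and these transcripts cannot be told apart.

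**Figure D4:**
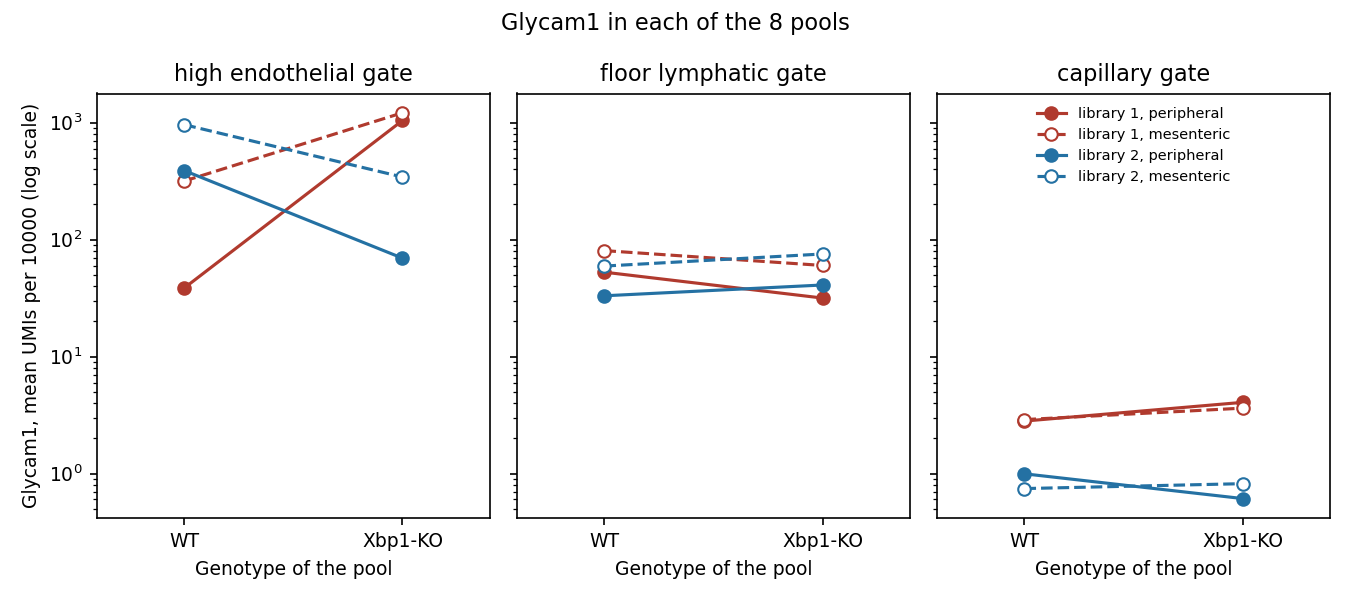
Mean Glycam1 UMIs per 10000 (y axis, log scale) in WT and Xbp1-KO pools for the high endothelial, floor lymphatic and capillary gates; each point is 1 pool, lines join pools of the same library and node, red is library 1, blue is library 2, and filled points are peripheral nodes. In the high endothelial gate the lines of library 1 rise and those of library 2 fall, in the floor gate they tilt weakly the other way, and capillary cells lie far below both.

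The make-up of the gate moved with the result in peripheral nodes. In library 1, 18.9% of WT and 40.3% of Xbp1-KO peripheral gate cells lay in the high endothelial-like cluster, and in library 2 27.8% and 15% did, out of 18 to 62 cells. The mesenteric shares were 71.8% and 86.1%, then 89.3% and 87.6%, out of 56 to 124 cells. Within the high endothelial-like cluster alone WT and Xbp1-KO stood in the same order as in the gate in 4 of 4 pairs, but in library 2 the peripheral pair rests on very few cells. The mesenteric levels were 389 in WT and 1173 in Xbp1-KO per 10000 for library 1, and 963 against 363 for library 2. Peripheral levels stood at 216 (10 cells) and 2005 (34 cells), then at 1659 (7 cells) and 319.9 (4 cells). Of the UMIs of those 7 cells, 49.9% came from 1 cell with 8130, and 2 of the 4 cells had none. The 4 pools with Xist ran from 963 to 2005 and the others from 216 to 389. Fitted on these clusters, with the sum of 4 cells left out, the difference between the libraries was -4.83. Xbp1-KO of library 2 is then 1 mesenteric sum, so the value is given without a test. In cells with at least 3 markers the difference was -5.69, also given without a test. Both peripheral sums of library 2 (3 and 4 cells) drop out there, so its library 2 effect is mesenteric alone. Leaving Glycam1 out of the library sizes of the gate gave -6.20 ± 0.56.

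Other high endothelial transcripts did not all pass this test. In mesenteric gate cells, Fut7 stood at 333 CPM in WT and 344 in Xbp1-KO of library 1, and at 485 and 521 in library 2. Madcam1 stood at 2282 and 3078 CPM, and at 2833 and 3084 CPM. The peripheral sums of Fut7 stood at 217 and 251, then at 389 and 309 CPM, in the order of Glycam1 in both libraries. The difference between libraries in the effect of genotype was -0.88 ± 0.38 for Madcam1 (edgeR, adjusted p 0.52) and did not pass. Of the 8 genes most like Glycam1 over single cells, 4 passed, all below 0: Ubd (-1.22 ± 0.22, edgeR, adjusted p 0.0013), Ccl21a (-2.84 ± 0.55, edgeR, adjusted p 0.0039), Ptgds, a prostaglandin D synthase (-3.18 ± 0.57, edgeR, adjusted p 0.0013), and Cd63, a tetraspanin of secretory granules (-1.48 ± 0.37, edgeR, adjusted p 0.048). In that comparison 0.855% of all genes passed. For Ccl21a, mesenteric WT and Xbp1-KO sums stood at 17539.9 and 17942 CPM in library 1 and at 21239.5 and 18576 in library 2. Its peripheral sums were farther apart, at 2907 and 11970.2, then 10248 and 1145 CPM, and there the share of gate cells in the high endothelial-like cluster moved in the same direction, as given above. The part of that make-up was not tested. The other 4, Chst4, Pglyrp1, Gcnt1 and Clu, did not. These genes were ranked over cells of the same pools, so a shared direction is no independent support. Of the 4 capillary gate markers, 0 passed: Gpihbp1 stood at 1.61 ± 0.51, Rgcc at 1.14 ± 0.55, Car4 at 2.72 ± 1.86 and Kdr at -0.05 ± 0.27 (edgeR, adjusted p 0.19 to 1.0). Some genes that led capillary clusters were called above 0, among them Timp4 (13.1 ± 1.12), Thrsp (2.02 ± 0.40), Fabp4 (1.83 ± 0.26) and Fabp5 (1.43 ± 0.36). Their adjusted p ran from 2.4e-09 to 0.0499 (edgeR). They were picked from the genes called after the values were seen, and their part was not tested.

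**Figure D5:**
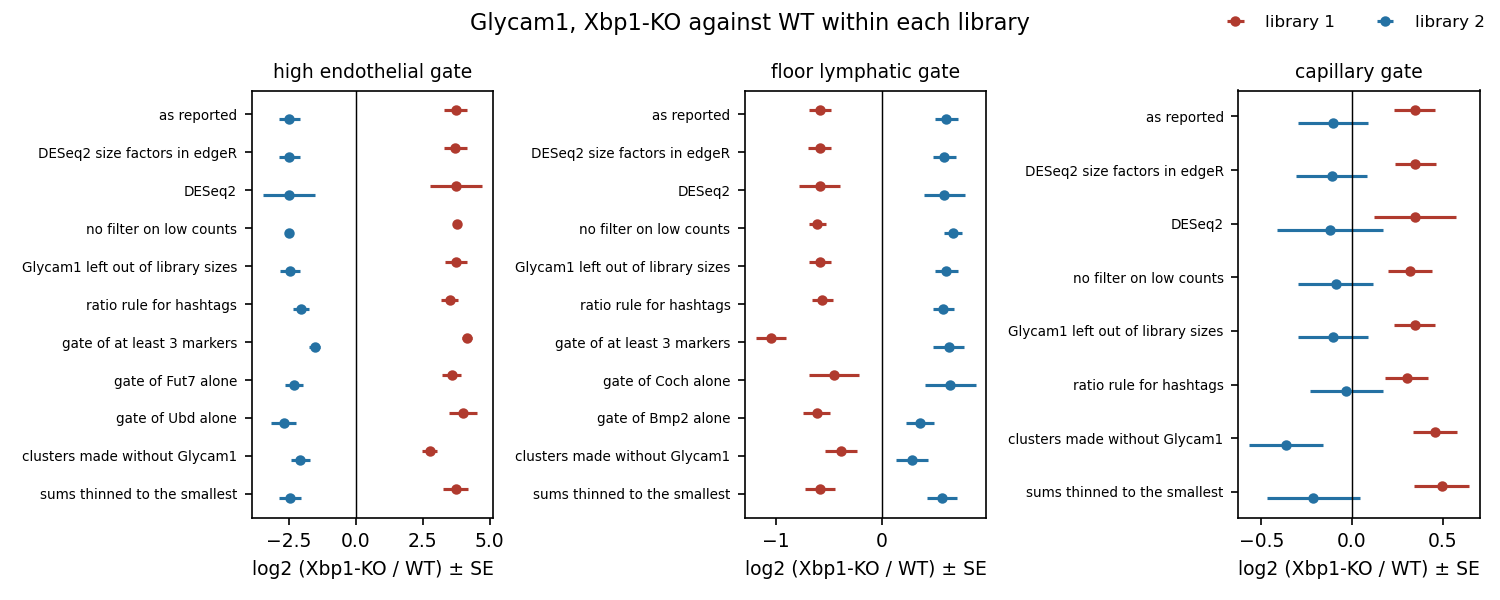
Points give the log2 ratio of Xbp1-KO to WT for Glycam1 (x axis, bars are ± SE of the fit) within library 1 (red) and library 2 (blue), for the fit as reported and for each alternative gate or method (y axis). In the high endothelial gate library 1 stays above 2.7 and library 2 below -1.5 in every case, the floor gate shows smaller differences of opposite sign, and capillary values stay within 0.5 of 0. The high endothelial points of library 2 for at least 3 markers and for clusters rest on fewer sums, as given in the text.

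In floor cells Glycam1 differed far less between genotypes. In library 1 it was 52.7 in WT and 31.7 in Xbp1-KO peripheral nodes, and 80.5 and 60.1 in mesenteric nodes. In library 2 it was 33.1 and 40.9 in peripheral and 59.4 and 75.4 in mesenteric nodes. Xbp1-KO was thus lower in both pairs of library 1 and higher in both pairs of library 2, the reverse of the high endothelial gate. The mean difference was -0.01 ± 0.16 in log2 (edgeR, adjusted p 1.0), in a comparison that called 0.0337% of 8904 genes. It was -0.20 ± 0.23 for peripheral nodes (0.0112% of genes called) and 0.18 ± 0.23 for mesenteric ones (0.0562% called). These effects differed by -0.37 ± 0.32 (edgeR, adjusted p 0.99 to 1.0 for the 3; 0.0225% called). Xbp1 itself passed in this comparison, at -1.34 ± 0.17 (edgeR, adjusted p 0.0015), with lower TMM-scaled CPM for Xbp1-KO in 4 of 4 pairs. WT and Xbp1-KO stood at 135 and 43.2 (peripheral) and 111 and 47.9 (mesenteric) in library 1, and at 138 and 47.1, then 57.0 and 49.4, in library 2. The direction of the targeted gene therefore followed the labels in both libraries in these cells, though the mesenteric WT sum of library 2 rests on 6 Xbp1 UMIs from 15 cells. In high endothelial cells Xbp1 stood at -0.45 ± 0.23 (edgeR, adjusted p 1.0) and was lower in 3 of 4 pairs. The deleted part of Xbp1 is not in the labels, and 3′ reads can come from transcripts that lack an exon.

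By library, Glycam1 in floor cells was lower in Xbp1-KO by -0.58 ± 0.10 in log2 in library 1 (edgeR, adjusted p 0.029; 0.180% of 8904 genes called). It was higher by 0.61 ± 0.11 in library 2 (edgeR, adjusted p 0.035; 0.0786% called). These calls passed in 5 and 3 of 10 alternatives, and with DESeq2 neither passed (adjusted p 1.0 for both). The difference between the libraries was 1.19 ± 0.15 (edgeR, adjusted p 0.00063). Of 7 genes called there, 0.0786% of those tested, 5 were Xist, Tsix, Ddx3y, Eif2s3y and Uty, of the X and Y chromosomes, and the others were Glycam1 and Apoe; this list was named after its values were seen. The call depends on how floor cells are picked, with 8 of 10 alternatives passing. It was 1.67 ± 0.20 with at least 3 markers and 0.97 ± 0.18 with Bmp2 alone, both of which passed (edgeR, adjusted p 0.00032 and 0.040). It did not pass at 0.67 ± 0.21 in the floor-like clusters (edgeR, adjusted p 1.0) or at 1.10 ± 0.33 in cells picked by Coch (edgeR, adjusted p 0.95). In floor-like clusters, WT and Xbp1-KO stood at 87.4 and 51.1 per 10000 in peripheral and 157 and 154 in mesenteric nodes of library 1. Library 2 had 44.6 and 52.1, then 102 and 108. By these per-cell means the direction was that of the gate in 4 of 4 pairs, but by the sums in 3 of 4, since the mesenteric sums of library 1 stood at 15930.2 (WT) and 16649.9 CPM (Xbp1-KO). The share of gate cells in that cluster was 73.9% and 73.0% in peripheral and 60% and 45.5% in mesenteric pools of library 1, and 74.6% and 83.3%, and 66.7% and 67.3%, in library 2. The part of that make-up was not tested.

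In capillary cells, the background, Glycam1 did not pass in any genotype comparison. The mean difference was 0.17 ± 0.58 in log2 (edgeR, adjusted p 1.0), or 0.21 ± 0.12 with the library as a block (edgeR, adjusted p 1.0; 8 genes called, 0 without the block), with 0% of 9234 genes called in the 4 genotype comparisons, of which this one had 235 at an unadjusted p under 0.05. Within library 1 it was 0.35 ± 0.11 and within library 2 -0.11 ± 0.19 (edgeR, adjusted p 0.67 and 0.97; 0.152% and 0.466% called), with a difference between libraries of -0.45 ± 0.23 (edgeR, adjusted p 0.77; 0.227% called). Between nodes it was 0.01 ± 0.58 (edgeR, adjusted p 1.0; 0.899% called).

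Peripheral nodes were also compared with mesenteric nodes. In floor cells Glycam1 was lower in peripheral nodes by -0.83 ± 0.16 in log2 (edgeR, adjusted p 0.0042; lower in 4 of 4 pairs), where 3.78% of 8904 genes were called. The levels were 31.7 to 52.7 per 10000 in the peripheral and 59.4 to 80.5 in the mesenteric pools, which do not overlap. Madcam1 was lower as well, at -0.60 ± 0.12 (edgeR, adjusted p 0.0072), whereas the gate marker C1ql3 was higher, at 1.60 ± 0.14, and Marco, a scavenger receptor of medullary sinuses, was lower, at -2.05 ± 0.24 (edgeR, adjusted p 1.3e-06 and 3.9e-05), so genes that mark the gate and its neighbours differ between nodes as well. Their part was not tested. In floor-like clusters the direction was the same in all 4 pairs, with peripheral levels of 44.6 to 87.4 and mesenteric levels of 102 to 157. Of 11 alternatives with a test, 9 passed. The call was lost with DESeq2 at -0.83 (adjusted p 0.21) and with at least 3 floor markers at -0.65 (edgeR, adjusted p 0.14). With library 1 or library 2 left out the difference was -0.79 and -0.87.

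In high endothelial cells Glycam1 was not called between nodes, at -0.73 ± 0.74 in log2 for peripheral minus mesenteric (edgeR, adjusted p 0.77), while 2.70% of 6434 genes were. With library 1 or library 2 left out the difference was -1.77 and -1.65. With no filter on low counts it passed at -0.83 ± 0.21 (edgeR, adjusted p 0.0050). As a share of all UMIs of the sum, Glycam1 was lower in peripheral nodes in 3 of 4 pairs, the exception being Xbp1-KO in library 1 (16.4% peripheral, 14.7% mesenteric), whereas the mean of the per-cell levels was lower in 4 of 4. In the high endothelial-like cluster the fitted difference was 1.22, the other direction, and did not pass (edgeR, adjusted p 0.45). That fit leaves out the peripheral Xbp1-KO sum of library 2, with 4 cells, and by the levels given above peripheral nodes were lower in 2 of 4 pairs of the cluster and higher in 2 of 4. Of the fitted gate, Madcam1 was lower in peripheral nodes at -7.24 ± 0.47 (edgeR, adjusted p 8.9e-08), and Chst4 at -1.91 ± 0.41 (edgeR, adjusted p 0.014), while Podxl, another sialomucin of endothelium, was higher at 1.12 ± 0.25 (edgeR, adjusted p 0.018). The capillary genes Gpihbp1 (2.66 ± 0.33) and Rgcc (2.60 ± 0.37) were higher there too (edgeR, adjusted p 0.00021 and 0.00053), and 15% to 40.3% of peripheral gate cells lay in the high endothelial-like cluster against 71.8% to 89.3% of mesenteric ones.

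The genes around Glycam1 in its pathway were read from 3 lists. Of 10 other sialomucin scaffolds, 6 were tested in high endothelial cells and 0 passed for Xbp1-KO against WT, in a comparison that called 0% of all genes, so nothing about the lists is read from these counts of 0. Their median log2 difference was -0.21, against 0.00 over all genes. The 4 largest were Parm1 (2.91 ± 1.38), Madcam1 (-0.53 ± 0.55), Podxl (-0.52 ± 0.25) and Cd300lg (-0.24 ± 0.24). Of 17 enzymes of sulfated sialyl Lewis X synthesis, 17 were tested and 0 passed, with a median of 0.02. Their largest were C1galt1c1, a chaperone of the core O-glycan enzyme (0.70 ± 0.73), B4galt1 (-0.64 ± 0.39), Chst4 (0.64 ± 0.45) and St3gal1 (0.62 ± 0.61). Of 8 genes of Xbp1, its sensors and the CREB3 family, 4 were tested and 0 passed: Xbp1, Creb3l2 (-0.44 ± 0.26), the sensor Ern1 (0.42 ± 0.55) and Creb3 (0.23 ± 0.30). In the difference between libraries 0 of the members of the 3 lists passed either, in a comparison that called 0.855% of all genes, and Gcnt1, which starts the branched core of O-glycans, came closest at -1.49 ± 0.38 (edgeR, adjusted p 0.059).

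In floor cells, 4 scaffolds, 15 enzymes and 6 genes of the Xbp1 list were tested. Of these, 1 passed for genotype, Xbp1, where 0.0337% of all genes did, and 1 passed between nodes, Madcam1, where 3.78% did, so the node count is near that of all genes. The largest genotype differences among the others were Cd300lg (-0.41 ± 0.26), Podxl (-0.28 ± 0.31), Madcam1 (-0.26 ± 0.12) and Parm1 (-0.11 ± 0.21) of the scaffolds, and Papss2, which makes the sulfate donor (-0.43 ± 0.22), C1galt1c1 (-0.42 ± 0.29), Slc35b2, its Golgi transporter (0.25 ± 0.18), and Gcnt1 (-0.22 ± 0.33) of the enzymes. The median genotype differences were -0.27 for the scaffolds, 0.01 for the enzymes and -0.16 for the Xbp1 list, against 0.01 over all genes.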

How the data were processed

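Per the file headers, the authors' deposited values are raw counts of UMIs per gene and barcode, made with Cell Ranger 6.0.1; the submitters' processing notes name version 6.1 and the mm10 build. The extraction protocol names a v2 kit, the design text v3 chemistry. Gene coordinates come from GENCODE M21 on GRCm38.

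The gene and the lists were chosen with earlier results of these data known. Hashtags were called with HTODemux (Seurat 5.3.0, quantile 0.99). Kept barcodes had a single tag, at least 500 genes and at most 10% mitochondrial UMIs; Scrublet in scanpy 1.11.5 removed 65 and 4 more, having marked 25.5% and 4.62% of barcodes with several tags in libraries 1 and 2. Gates used the markers named in the text. Clusters used 30 principal components, 15 neighbours and Leiden resolution 1, without Glycam1 and the gate markers, and were then named by the marker lists.

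Counts were summed per library, pool and gate: 8 sums, 2 per group, of 15 to 720 cells. They were tested with edgeR 4.0.16 (TMM, quasi-likelihood) at an adjusted p of 0.05. In counts simulated from the high endothelial sums, 24% of genes with a 2-fold and 80% with a 4-fold genotype effect were found over 6434 genes, and 4% and 31% for the difference between libraries. In the floor sums these were 73% and 95%, and 6% and 50%, over 8904 genes. The simulated spread was that of the fit by node and genotype in all cases, with no node effect and no shared animals. The shares for the difference between libraries therefore do not describe the fit reported. Pools of 1 library were run together per the labels; the deviations of its groups correlated at 0.03 to 0.22 in high endothelial and -0.02 to 0.18 in floor sums, and at 0.12 to 0.31 in capillary sums, over 6 pairs of groups each. Alternatives were DESeq2 1.42.0 and its size factors, no filter on low counts, other gates and hashtag rules, clusters, thinning, a block and leaving out a library. The rule for named genes took members of the lists that passed or, where none did, the 4 with the largest difference, and the 8 genes most like Glycam1 (with the 4 least like over single cells).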

Additional observations from a re-analysis of the deposited data

Results flagged for a closer look

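The effect of genotype on Glycam1 differed between the 2 libraries by a test of the difference itself. In the high endothelial gate, library 2 minus library 1 was -6.20 in log2, and in the floor gate it was 1.19. Both tests were chosen after the values had been seen. Barcodes with more than 1 hashtag, which entered no comparison, also held Glycam1 above the level of capillary cells: 36.8% of 685 such barcodes in library 1 and 21.5% of 130 in library 2 lay above the 99th percentile of capillary cells. They held 21.2% and 4.97% of the Glycam1 UMIs of their library, at median depths of 7262 and 7392 UMIs. Barcodes with no tag held a mean of 0.735 and 0.542 Glycam1 UMIs.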

How the results depend on the processing

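Over 30 results, 254 of 311 alternative values kept their direction, their side of the threshold or their level; the cause of the others was not tested. Some that kept their side moved far: with 3 markers the high endothelial genotype effect was 3.51 (mean) and 6.55 (peripheral), 6.08 between tissues and -1.81 between nodes, none passing. Both peripheral sums of library 2 (3 and 4 cells) drop out there, so the peripheral values rest on library 1 alone (5 WT and 19 Xbp1-KO cells). With no filter on low counts, 3 high endothelial comparisons that did not pass as reported passed in edgeR: the mean genotype effect (0.95, adjusted p 0.019), the peripheral one (1.55, adjusted p 0.0025) and the node difference (-0.83, adjusted p 0.0050). Node differences of the other sign were 1.22 in high endothelial-like clusters and, in capillary cells, -0.058 with the library as a block, -0.010 with DESeq2 and -0.14 after thinning. The capillary difference between tissues turned to -0.038 with the block and -0.066 after thinning. The floor mean effect turned to 0.0076 with the block, 0.00057 with no filter and 0.0034 with Coch alone, and the floor mesenteric effect to -0.11 with 3 markers and -0.10 with Bmp2 alone.

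The library as a block was added to the node and genotype fits, not to those by library; the call for Glycam1 among them, the floor node difference, passed with it as well (-0.83). In capillary sums it raised the genes called for genotype in mesenteric nodes from 0 to 35 and between nodes from 83 to 312. With DESeq2 the high endothelial effect in library 2 was -2.49 and the floor node difference -0.83, and neither passed; the latter was -0.65 with 3 markers. The floor effect in library 1 no longer passed at -0.59 with DESeq2, -0.45 with Coch, -0.61 with Bmp2, -0.39 in clusters and -0.58 after thinning. In library 2 it no longer passed at 0.59 with DESeq2 or its size factors, 0.63 with 3 markers, 0.65 with Coch, 0.36 with Bmp2, 0.28 in clusters and 0.57 after thinning. The floor difference between libraries was 1.10 with Coch and 0.67 in clusters.

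Leaving out library 1 or library 2 leaves 1 pool per group of node and genotype, and the values are given without a test. The genotype effect then ran, in high endothelial cells, from -2.51 to 3.71 (mean), -3.33 to 5.43 (peripheral) and -1.68 to 1.99 (mesenteric), with -1.65 to 3.45 between tissues and -1.77 to -1.65 between nodes. In floor cells it ran from -0.58 to 0.61, -0.81 to 0.45 and -0.35 to 0.77. In capillary cells the mean ran from -0.13 to 0.34, the peripheral effect from -0.29 to 0.39, the difference between tissues from -0.32 to 0.10 and that between nodes from -0.25 to 0.033. Against 547 per 10000, high endothelial levels were 1007 with 3 markers, 323 with Ubd alone and 349.9 in cells of 1500 to 10000 UMIs. Floor levels moved to 72.5 and 107 with 3 markers and with Coch. Floor cells with a UMI were 93.4% and 98.0% there, and 70.1% as a mean over pools after thinning.

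Counts of genes called ranged over the alternatives from 19 to 76 for the high endothelial difference between libraries (55 as reported), 6 to 427 between nodes (174), 79 to 1180 for floor nodes (337) and 3 to 25 for the floor difference (7). With clusters, 7 high endothelial sums remained.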
